A study of Mus musculus with 12 samples.

Results

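Metabotropic glutamate receptor genes were followed through the whole-brain transcriptomes of mice lacking 1 or both copies of Slc6a20a. The genes were taken by symbol from the deposited table of normalized counts after its Ensembl identifiers had been matched to GENCODE M21, which gave 6 of 6 listed genes (Grm2, Grm3, Grm4, Grm5, Grm7 and Grm8) among 19775 genes. Brains came from 12 male C57BL/6N mice at about postnatal day 120, with 4 wild-type (WT), 4 Slc6a20a heterozygous (Slc6a20a+/-, HT) and 4 Slc6a20a homozygous mutant (Slc6a20a-/-, HM) mice. The mutant allele lacks exon 3 of Slc6a20a, a transporter of proline and glycine, and heterozygous parents were crossed to obtain all 3 genotypes. Each library was made from poly-A RNA of 1 whole brain, so a receptor that differs in 1 brain region is averaged with all others, and fewer cells of a type and less RNA per cell cannot be told apart.

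Metabotropic glutamate receptors are G protein-coupled receptors that tune the strength of synapses at which glutamate is released. Group I receptors, of which Grm5 encodes 1, couple to Gq and phospholipase C and lie mostly at the edge of the postsynaptic density. Group II (Grm2 and Grm3) and group III (Grm4, Grm7 and Grm8) couple to Gi/o proteins, lower adenylyl cyclase activity and act largely as brakes on transmitter release, while Grm3 is also prominent in astrocytes.

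Normalized counts summed to between 33284951 and 33748623 per mouse. These sums were already equalized by the authors' normalization, so the depth of each library is unknown. Normalized counts of the targeted gene Slc6a20a averaged 64.5 ± 9.95 in HM, 345 ± 29.1 in HT and 679 ± 70.1 in WT mice (SD, n = 4 each), and no value of one genotype overlapped those of another. Of 8 neuronal markers and 8 astrocyte markers, none was at 0 in any mouse. All 6 receptor genes passed the filter on low values (an average of 10 or more over the 8 mice compared) in each comparison.

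In HM mice, all 6 receptor genes had a log2 fold change above 0 against WT, from 0.0019 for Grm7 to 0.17 for Grm2, with a median of 0.12 beside a median of -0.0003 over all genes tested, of which 49.8% lay above 0. No receptor gene passed the adjusted threshold in any comparison (limma, Benjamini-Hochberg (BH) adjustment over all genes tested, threshold 0.05). An unadjusted p under 0.05 with a higher value in HM mice was reached by 4 of 6 receptor genes, Grm2, Grm3, Grm4 and Grm5, and by 3.93% of the 18004 genes tested. The lower direction held 0 receptor genes and 3.05% of all genes, and 0.0111% of all genes passed the adjusted threshold. This count fell to 2 without WT replicate 1, WT replicate 4 or HM replicate 1, and to 1, Grm2, without HM replicate 2 or HM replicate 4. In HT mice the median of the 6 log2 fold changes was 0.09, 5 of 6 lay above 0 (50% of all genes did), and 0 of 6 had an unadjusted p under 0.05. Of all genes tested, 3.16% had one in the higher and 3.26% in the lower direction, and 0.00555% passed the adjusted threshold. The count in HT mice was 2 without HT replicate 3 (Grm5 and Grm3), 2 without WT replicate 2 (Grm2 and Grm8) and 1 without WT replicate 3 (Grm5). The HT and HM comparisons share the same 4 WT mice. Of 5 blood markers, 5 were lower in HT against WT at an unadjusted p under 0.05 (median log2 fold change -0.83, limma). In HM against WT, 4 of these 5 lay above 0. Of 8 neuronal markers, 8 lay above 0 in HM against WT (median 0.04) and 6 in HT against WT. In HM mice 1 of them was higher at an unadjusted p under 0.05 (limma). The part of these markers in the receptor values was not tested.

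**Figure D1:**
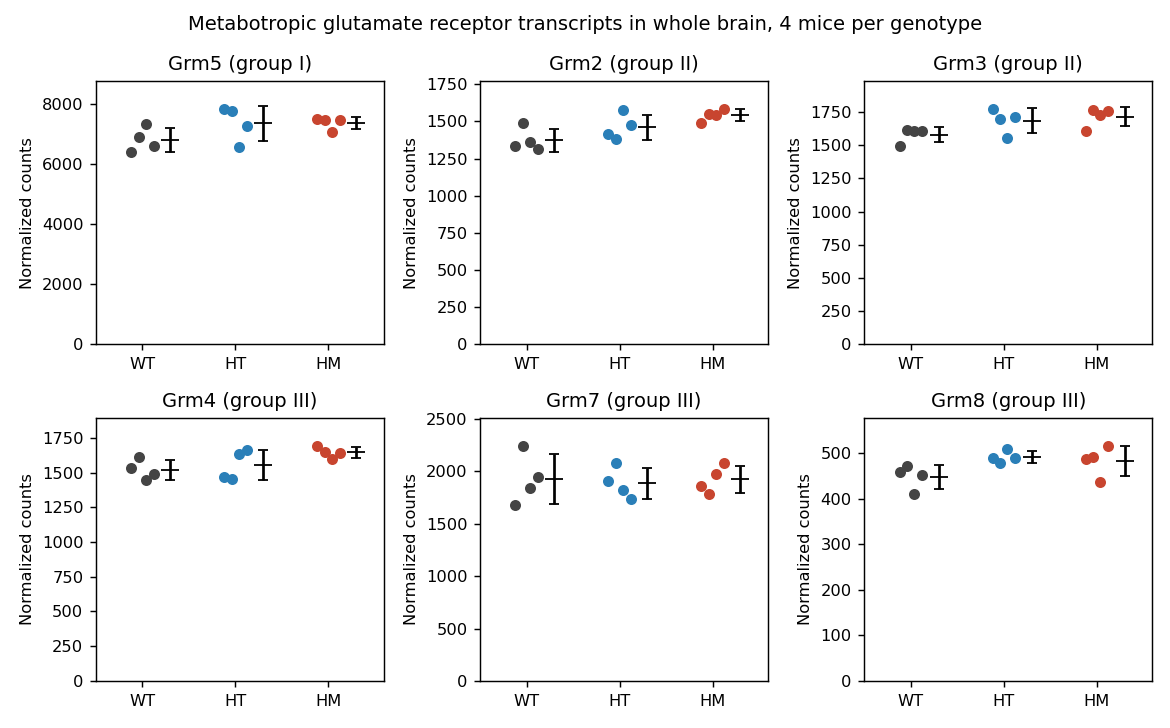
Normalized counts of the 6 receptor genes in whole brain, with 1 point for each of the 4 mice per genotype (WT, HT, HM) and the mean with its SD beside the points; each vertical axis starts at 0. Only for Grm8 do all 4 HT values (478.9 to 508 normalized counts) lie above all 4 WT values (410.2 to 472), and for no gene do the HM values clear all WT values.

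Levels of different genes were compared per length, as normalized counts per kb of the longest coding transcript, because a long transcript yields more fragments. Over the 12 mice, Grm5 had the highest level, 894 ± 59.3 per kb (SD, n = 12), followed by Grm3 with 544 ± 30.0 per kb and Grm7 with 456 ± 38.3 per kb. Grm4 had 342 ± 19.4 per kb, Grm2 had 309.7 ± 20.4 per kb and Grm8 had 123 ± 7.88 per kb. The ranges of Grm3 and Grm7 overlapped, with Grm3 higher in 11 of 12 mice, and so did those of Grm4 and Grm2, although Grm4 was higher in 12 of 12 mice. The other neighbours in this order did not overlap. With the median length of the coding transcripts in place of the longest, Grm5 remained first and Grm8 last, but Grm7 (1081 per kb) and Grm2 (669 per kb) moved ahead of Grm3 (544 per kb) and Grm4 (460.3 per kb). The order of the 4 genes in the middle therefore depends on the transcript length assumed.

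**Figure D2:**
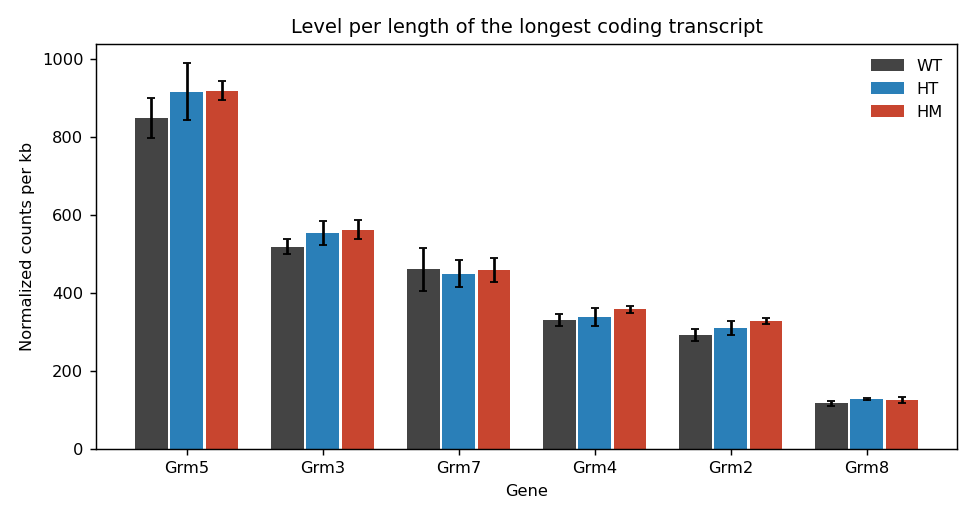
Level of each receptor gene as normalized counts per kb of its longest coding transcript; bars are means of 4 mice per genotype (WT, HT, HM) and error bars are SD. Grm5, at 894 per kb over all mice, stands above Grm3 (544), Grm7 (456), Grm4 (342), Grm2 (309.7) and Grm8 (123), and the order is the same in each genotype.

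The 6 genes lie on 5 chromosomes of the mouse genome (GRCm38), with Grm7 and Grm8 both on chromosome 6. Their spans differ widely. Grm2 covers 13.0 kb of chromosome 9 (106643095 to 106656082, minus strand), and Grm7 covers 921.6 kb of chromosome 6 (110645581 to 111567230, plus strand). Grm8 spans 860.1 kb (27275119 to 28135178, minus strand), Grm5 spans 550.7 kb of chromosome 7 (87584168 to 88134907, plus strand), Grm3 spans 239.6 kb of chromosome 5 (9485541 to 9725170, minus strand) and Grm4 spans 99.0 kb of chromosome 17 (27422387 to 27521403, minus strand). Exons of Grm2 share 470 bases with the antisense gene Gm28111, and exons of Grm7 share 130 bases with the antisense gene Gm20387. The paper's methods name the library kit without saying whether it marks the strand. Without such marking, reads in these shared bases cannot be assigned to one strand.

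Promoter sequences from RefSeq (GRCm38.p6) were at hand for Grm2, Grm3, Grm7 and Grm8, a match for 4 of 6 genes. Those of Grm2, Grm3 and Grm7 are printed as the 200 bases before the start site, 5′ to 3′ on the strand of the gene. Each GC box (GGGCGG, searched on both strands) is in capitals. Grm2 and Grm3, the group II pair, had log2 fold changes above 0 in HM mice that did not pass the adjusted threshold. The mean of Grm7 was nearly the same in HM and WT mice. The windows are chr9:106656110-106656309 for Grm2 (minus strand), chr5:9725353-9725552 for Grm3 (minus strand) and chr6:110645312-110645511 for Grm7 (plus strand).
Grm2: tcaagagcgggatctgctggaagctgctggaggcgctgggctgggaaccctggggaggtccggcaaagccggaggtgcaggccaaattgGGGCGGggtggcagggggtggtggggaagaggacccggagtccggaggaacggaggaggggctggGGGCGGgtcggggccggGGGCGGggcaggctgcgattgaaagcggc
Grm3: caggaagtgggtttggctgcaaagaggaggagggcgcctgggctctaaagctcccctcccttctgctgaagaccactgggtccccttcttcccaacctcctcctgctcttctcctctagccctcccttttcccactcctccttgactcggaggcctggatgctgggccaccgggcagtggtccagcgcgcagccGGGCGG
Grm7: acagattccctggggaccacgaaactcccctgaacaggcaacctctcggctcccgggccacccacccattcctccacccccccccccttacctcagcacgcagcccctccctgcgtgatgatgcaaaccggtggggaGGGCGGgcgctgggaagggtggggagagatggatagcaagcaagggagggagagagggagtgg

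The Grm2 window holds 3 GC boxes and the windows of Grm3 and Grm7 hold 1 each. Among the 250 bases before each of 27025 start sites, 33.0% held at least 1. All 4 receptor promoters were rich in G and C, with 71.2% over 250 bases for Grm2, 68.4% for Grm8, 62.4% for Grm3 and 62.0% for Grm7, beside a median of 52.0% over all promoters. CG pairs numbered 29 in Grm8, 16 in Grm2 and 8 in both Grm3 and Grm7, against a median of 6. Neither TATAAA, present in 13.0% of all promoters, nor the cAMP response element TGACGTCA, present in 1.60%, was found in these 4 windows on either strand. Grm3 and Grm7 had the same numbers of GC boxes and CG pairs. A relation of promoter sequence to the differences between genotypes was not tested.

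Grm5 (ENSMUSG00000049583), the Gq-coupled receptor of group I, was the most abundant of the 6 receptors. WT mice had 6397, 6908, 7349 and 6607 normalized counts, HT mice 7839, 7769, 6569 and 7296, and HM mice 7498, 7476, 7089 and 7492. Of the 4 HM values, 3 lay above all WT values, but HM replicate 3 lay below the highest WT mouse, and HT replicate 3 was the lowest of the mutants. Means were 6815 ± 413 in WT, 7368 ± 585 in HT and 7389 ± 200.3 in HM (SD, n = 4 each). Relative to WT, HM mice were at 0.12 on the log2 scale (SE 0.05, unadjusted p = 0.0216, adjusted p = 0.67, limma, BH), with a 95% interval from a 1.43% to a 16.1% higher level. HT mice were at 0.11 (SE 0.06, unadjusted p = 0.0829, adjusted p = 0.794, limma, BH), with an interval of the difference from -1.14% to 18.0%. Exact permutation tests over the 70 splits of 8 mice gave p = 0.0571 in HM and p = 0.2 in HT mice (two-sided), where 0.0286 is the smallest p that 4 against 4 allow. With 1 mouse left out the value in HM mice ran from 0.09 to 0.16, with an unadjusted p under 0.05 in 3 of 8 fits and up to 0.0605 (limma). In HT mice it ran from 0.08 without HT replicate 1 (unadjusted p = 0.224, limma) to 0.17 without HT replicate 3 (unadjusted p = 0.00865, adjusted p = 0.777, limma, BH).

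Grm2 (ENSMUSG00000023192), a presynaptic autoreceptor of group II, had the largest log2 fold change of the 6 genes between HM and WT. Counts in HM mice were 1487, 1553, 1545 and 1582, and those in WT mice were 1333, 1488, 1360 and 1316. The groups met at a single pair, since WT replicate 2, at 1488, lay just above HM replicate 1, at 1487, and the other 3 WT mice were lower than every HM mouse. HT mice were intermediate with 1413, 1379, 1575 and 1475 normalized counts and overlapped both other genotypes. Means were 1374 ± 78.2 in WT, 1460 ± 86.1 in HT and 1542 ± 40.1 in HM (SD, n = 4 each), 12.2% higher in HM than in WT mice. The log2 fold change of 0.17 in HM mice (SE 0.05, unadjusted p = 0.00637, adjusted p = 0.643, limma, BH; exact permutation p = 0.0571) had a 95% interval from 3.97% to 21.3% higher, and it ranked Grm2 at position 172 of 18004 genes by p. Each mouse left out in turn gave a log2 fold change between 0.15 and 0.21, with an unadjusted p under 0.05 in 8 of 8 fits (adjusted p from 0.411 to 0.874, limma, BH). In HT mice the log2 fold change was 0.09 (SE 0.06, unadjusted p = 0.154, limma) and ran from 0.05 to 0.13 with 1 mouse left out. From HT to HM mice it was 0.08 (SE 0.05, unadjusted p = 0.129, limma).

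Granule cells of the dentate gyrus and neurons of the olfactory bulb are known sites of Grm2 expression, and marker genes of both regions were examined beside it. All 6 of 6 dentate granule cell markers had a log2 fold change above 0 in HM mice, 2 of them with an unadjusted p under 0.05, and none was at 0. Their summed level ranged from 5511 to 6619 normalized counts in HM, 5588 to 6610 in HT and 4628 to 5718 in WT mice. These sums overlapped between WT and both mutants. With each marker given equal weight, as the mean over markers of the log2 difference from the marker's average in the 12 mice, HM mice lay between 0.04 and 0.25, above all WT mice (-0.33 to 0.0098), and HT mice lay between -0.14 and 0.11. Olfactory bulb markers summed to between 1718 and 2405 in HM, 1119 and 1595 in HT and 1431 and 1486 in WT mice, so by this sum every HM mouse lay above all others. With equal weights the HM range (-0.02 to 0.67) overlapped that of WT (-0.33 to 0.18) and not that of HT (-0.63 to -0.11). Of these 10 markers, 9 had a log2 fold change above 0 in HM against WT, 5 of them with an unadjusted p under 0.05, and none was at 0. The part of either region in the Grm2 difference was not tested.

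Grm3 (ENSMUSG00000003974), the group II receptor shared by neurons and astrocytes, had 1491, 1611, 1605 and 1609 normalized counts in WT mice. Those of HT mice were 1771, 1701, 1552 and 1710, and those of HM mice were 1608, 1766, 1727 and 1754. In each mutant genotype 3 of 4 mice exceeded all WT mice and the remaining one lay within the WT range. The mean of 1579 ± 58.7 in WT compared with 1684 ± 93.0 in HT and 1714 ± 72.3 in HM mice (SD, n = 4 each). The log2 fold change in HM mice was 0.12 (SE 0.05, unadjusted p = 0.0326, adjusted p = 0.673, limma, BH; exact permutation p = 0.0857), with an interval from 0.793% to 16.8% higher. In HT mice it was 0.09 (SE 0.05, unadjusted p = 0.107, adjusted p = 0.823, limma, BH; exact permutation p = 0.114). With 1 mouse left out the unadjusted p in HM mice stayed under 0.05 in 4 of 8 fits and reached 0.0881 without HM replicate 2. Summed astrocyte markers ranged from 52140 to 54190 normalized counts in HM, 51580 to 54000 in HT and 48530 to 54850 in WT mice, so the mutant ranges lay inside that of WT. Of these 8 markers, 7 had a log2 fold change above 0 in HM and 6 in HT mice. In each mutant genotype 1 was higher at an unadjusted p under 0.05 (limma). Markers of 2 other tissues or cell types had log2 fold changes below 0 in HM mice, in which those of Grm5 and Grm3 lay above 0. None of these differences passed the adjusted threshold (limma, BH). Of 8 choroid plexus markers, 0 had a log2 fold change above 0 in HM against WT and 3 were lower at an unadjusted p under 0.05 (limma), with a median of -0.39 and sums of 9914 to 18030 in HM against 15360 to 19920 in WT mice. Of 8 microglial markers, 0 lay above 0 and 2 were lower at that p (limma), with a median of -0.09 and sums of 8634 to 9732 against 9057 to 10600. Of all genes, 3.05% were lower at that p and 49.8% lay above 0. With equal weights the exact permutation p for HM against WT was 0.314 for choroid plexus and 0.143 for microglial markers. None of these markers was at 0, and their part in the differences of Grm5 and Grm3 was not tested.

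Grm4 (ENSMUSG00000063239), a group III receptor best known from the terminals of cerebellar granule cells, had 1692, 1649, 1601 and 1639 normalized counts in HM mice and 1536, 1612, 1447 and 1489 in WT mice. HM replicate 3 alone lay below the highest WT mouse. Of the HT mice, 2 (1468 and 1457) sat within the WT range and 2 (1637 and 1664) lay above it. Means were 1521 ± 71.0 in WT, 1556 ± 109 in HT and 1645 ± 37.3 in HM (SD, n = 4 each). Against WT the log2 fold change was 0.11 in HM mice (SE 0.05, unadjusted p = 0.0333, adjusted p = 0.673, limma, BH; exact permutation p = 0.0571) and 0.03 in HT mice (SE 0.06, unadjusted p = 0.598, limma). Each column of the table carries a number besides the genotype, and a fit with the first 3 digits of that number as a block gave 0.042 in HM mice (unadjusted p = 0.511, limma). In that fit, added after seeing the data, only 2 of 4 WT and 2 of 4 HM mice had a mouse of the other genotype in their block. The 7 cerebellar granule cell markers used here summed to between 7820 and 8197 normalized counts in HM, 7715 and 7973 in HT and 7399 and 7683 in WT mice, with both mutant ranges above that of WT. With equal weights the ranges overlapped (-0.08 to 0.06 in HM, -0.0002 to 0.04 in HT and -0.14 to 0.06 in WT). The exact permutation p against WT was then 0.514 in HM and 0.4 in HT mice. Within genotypes, Grm4 ran opposite to these markers (Pearson's r = -0.48 over 12 mice). None was at 0, 5 of 7 had a log2 fold change above 0 in HM mice, and 1 of them had an unadjusted p under 0.05. Their part in the Grm4 difference was not tested, and the marker Gabra6 was not analysed here.

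Grm8 (ENSMUSG00000024211), the least abundant of the 6 and a presynaptic receptor of group III, was the only one whose HT and WT mice separated completely. WT mice had 459, 472, 410.2 and 450.7 normalized counts, and HT mice had 489, 478.9, 508 and 489. The lowest HT mouse exceeded the highest WT mouse (exact permutation p = 0.0286, the smallest this design allows), a pattern of 1 of 6 receptor genes and of 1.82% of all genes tested. By limma, HT mice were 0.13 above WT on the log2 scale (SE 0.07, unadjusted p = 0.0692, adjusted p = 0.783, limma, BH). HM mice had 487, 492, 435.8 and 515 normalized counts, with replicate 3 inside the WT range and the other 3 above it. Their log2 fold change was 0.11 (SE 0.08, unadjusted p = 0.183, limma; exact permutation p = 0.2), with an interval of the difference from -3.88% to 20.5%. With 1 mouse left out it ran from 0.064 without WT replicate 3 (unadjusted p = 0.43, limma) to 0.15. With the header-number block it was 0.026 (unadjusted p = 0.803, limma). No receptor gene separated HM from WT mice completely, a pattern of 2.41% of all genes in the higher direction.

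Grm7 (ENSMUSG00000056755), the group III receptor of the presynaptic active zone, had the widest spread between WT mice relative to its mean (a coefficient of variation of 12.2%) and the smallest difference in HM mice. WT mice ranged from 1683 to 2244 normalized counts with a mean of 1929 ± 236 (SD, n = 4), and both extremes of the 12 mice were WT. HT mice ranged from 1736 to 2077 (1886 ± 146) and HM mice from 1789 to 2077 (1924 ± 127). Against WT, limma gave log2 fold changes of -0.03 for HT mice (SE 0.08, unadjusted p = 0.728, limma) and 0.0019 for HM mice (SE 0.08, unadjusted p = 0.981, limma). The 95% interval in HM mice ran from -0.17 to 0.17 on the log2 scale, so a difference of the size measured for Grm5, Grm3 or Grm4 lies within it. With the header-number block Grm7 had a log2 fold change of -0.12 in HT mice (unadjusted p = 0.0334, adjusted p = 0.743, limma, BH).

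**Figure D3:**
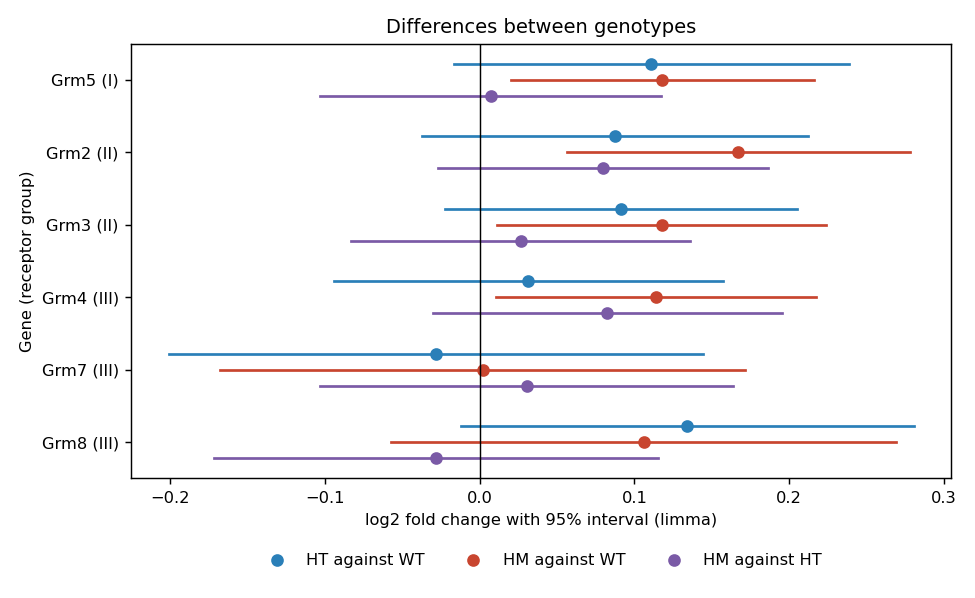
Log2 fold change of each receptor gene (points) with its 95% interval from limma (lines) for HT against WT, HM against WT and HM against HT, 4 mice per genotype. The HM against WT intervals of Grm5, Grm2, Grm3 and Grm4 lie above 0 before any adjustment, and all other intervals include 0.

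By receptor group, the log2 fold change in HM mice was 0.12 for the single group I gene, had a median of 0.14 for the 2 group II genes and a median of 0.11 for the 3 group III genes. In HT mice the same values were 0.11, 0.09 and 0.03. Group III was the most divided, with Grm8 at 0.13, Grm4 at 0.03 and Grm7 at -0.03 in HT mice. Differences between the receptor groups were not tested. HM and HT mice compared directly had a median log2 fold change of 0.03 over the 6 genes, between -0.03 for Grm8 and 0.08 for Grm4, with 5 of 6 above 0 (49.5% of all genes were). In this comparison 0 of 6 had an unadjusted p under 0.05 (limma), against 2.11% of the 17986 genes tested in the higher and 1.62% in the lower direction, and 0.00556% of these genes passed the adjusted threshold. Without HT replicate 3 the count was 1, Grm2, the median was 0.0013 and 3 of 6 lay above 0. Without HM replicate 4 the median was 0.0076 and 4 of 6 lay above 0. The interval of the difference between HM and HT mice ran from -1.83% to 13.8% for Grm2 and from -6.90% to 8.48% for Grm5.

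**Figure D4:**
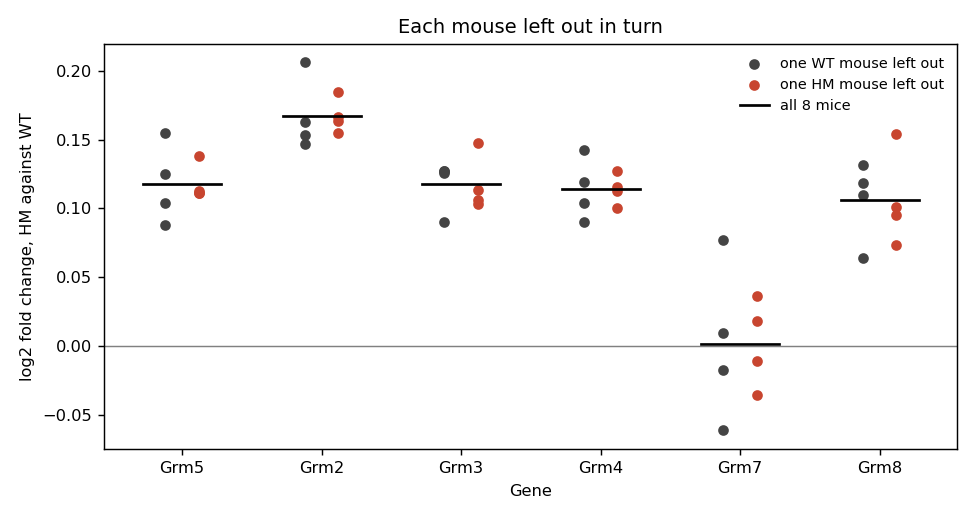
Log2 fold change of HM against WT for each receptor gene with all 8 mice (black line) and with 1 mouse left out in turn (points, coloured by the genotype of the mouse left out). Grm2 stays between 0.15 and 0.21, and Grm7 lies on both sides of 0, from -0.06 to 0.08.

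Single mice contributed unevenly to these values. WT replicate 1 had the lowest of all 12 values for 3 of 6 receptor genes (Grm5, Grm3 and Grm7), WT replicate 3 for 2 (Grm4 and Grm8) and WT replicate 4 for 1 (Grm2). The highest of the 12 values was held by HT replicate 1 for 2 genes, HM replicate 4 for 2, and HM replicate 1 and WT replicate 2 for 1 each. Within genotypes, after subtraction of each genotype mean, Grm2 and Grm4 varied together (Pearson's r = 0.67 over 12 mice), as did Grm5 and Grm3 (r = 0.67) and Grm4 and Grm8 (r = 0.54). Grm5 ran opposite to Grm4 (r = -0.55) and Grm3 ran opposite to Grm4 (r = -0.45). Each point is 1 library, so the genes share its composition and normalization, and these values are descriptions. The 2 group II genes, Grm2 and Grm3, had r = -0.14.

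The protein-coding genes whose variation within genotypes was most like that of each receptor were sought among 12512 genes averaging 100 or more normalized counts. They were Zfp809 (r = 0.96) and Galnt13 (r = 0.94) for Grm5, Nkd2 (r = 0.91) and Znfx1 (r = 0.90) for Grm2, and Pcdhgb4 (r = 0.93) and Slc25a47 (r = 0.92) for Grm3. For group III they were Unc5a (r = 0.93) and Zfyve9 (r = 0.93) for Grm4, Coch (r = 0.94) and Eml5 (r = 0.91) for Grm7, and Dact2 (r = 0.92) and Sumo3 (r = 0.90) for Grm8. The 6 receptors shared none of these 12 genes. These are the highest values of a search through many genes, over the same 12 libraries.

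Genes that act with these receptors were counted from lists of known partners. Each count stands beside the shares over all genes tested, which at an unadjusted p under 0.05 were 3.93% higher and 3.05% lower in HM and 3.16% higher and 3.26% lower in HT mice. A log2 fold change above 0 was found for 49.8% of all genes in HM and 50% in HT mice, and HM values wholly above WT for 2.41%. Of 10 scaffolds and partners of group I receptors, 2 had an unadjusted p under 0.05 in HM mice, both higher, and 0 passed the adjusted threshold (limma, BH). Ncdn, encoding the receptor partner norbin, averaged 52040 ± 1788 normalized counts in HM, 51290 ± 2084 in HT and 48170 ± 617 in WT mice. Both mutant genotypes lay wholly above WT (log2 fold change 0.11 in HM and 0.09 in HT mice, unadjusted p = 0.00637 and 0.0366, limma). Homer2, a scaffold that links group I receptors to calcium stores, had a log2 fold change of 0.11 in HM mice (unadjusted p = 0.042, limma).

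Among 13 genes of the Gq and phospholipase C cascade, 3 were higher and 1 lower at an unadjusted p under 0.05 in HM mice, and 1 was higher in HT mice. Prkca, a protein kinase C isoform activated downstream of Gq, had a log2 fold change of 0.14 in HM mice (unadjusted p = 0.00572, limma), with no overlap with WT. Gnaq, the G protein subunit itself, had 0.10 in HT and 0.09 in HM mice (unadjusted p = 0.0266 and 0.030, limma). Plcb1, the phospholipase, had 0.09 in HM mice (unadjusted p = 0.0415, limma). The lower gene was Mgll, which degrades the endocannabinoid 2-AG, with a log2 fold change of -0.08 (unadjusted p = 0.0419, limma). The median over the list was 0.05 in HM and 0.06 in HT mice, and 10 and 12 of 13 genes lay above 0, where about 50% of all genes did.

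For the Gi/o side, on which groups II and III act, 3 of 16 genes were higher and 0 lower at an unadjusted p under 0.05 in HM mice, with a median log2 fold change of 0.05 and 14 of 16 above 0, beside 3.93%, 3.05% and 49.8% of all genes. Gnao1, the major Gi/o subunit of brain, averaged 25710 ± 282 normalized counts in HM mice, against 23910 ± 774 for WT (log2 fold change 0.11, unadjusted p = 0.00776, limma), without overlap. Gnb1 and Gnaz had log2 fold changes of 0.09 and 0.13 in HM mice (unadjusted p = 0.020 and 0.0204, limma). In HT mice 2 of 16 genes were higher, Adcy5 (log2 fold change 0.10, unadjusted p = 0.0135, limma) and Gnb1, and Adcy5 was lower in HM than in HT mice (log2 fold change -0.07, unadjusted p = 0.0313, limma). Adcy5 encodes the main adenylyl cyclase of striatal neurons. Of 8 markers of striatal projection neurons, 8 had a log2 fold change above 0 in HT against WT and 0 in HM against HT (median -0.07), with sums of 27310 to 28800 in HM, 28610 to 30880 in HT and 28260 to 29510 in WT mice. None was at 0, and their part in the Adcy5 difference was not tested.

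Of 11 receptor kinases, arrestins and RGS proteins, 1 had an unadjusted p under 0.05 in HM mice, namely Grk2, a kinase that desensitizes G protein-coupled receptors, at 7501 ± 227 normalized counts against 8273 ± 611 in WT mice (log2 fold change -0.14, unadjusted p = 0.0147, limma), again without overlap. Among 8 partners of group III receptors, 1 did so, Grip1, a PDZ scaffold (log2 fold change 0.14, unadjusted p = 0.0256, limma). Among 8 genes of group I-dependent synaptic depression and local translation, the microtubule protein gene Map1b had a log2 fold change of 0.17 in HT and 0.19 in HM mice (unadjusted p = 0.00604 and 0.00252, limma). Of these 8 genes, 4 lay above 0 in HM mice and 3 in HT mice. Of 13 genes for the supply and removal of glutamate and of the Grm3 agonist NAAG, 0 had an unadjusted p under 0.05 in HM mice and 1 in HT mice, the astrocytic glutamate transporter Slc1a2 (log2 fold change 0.11, unadjusted p = 0.0433, limma). The vesicular glutamate transporter Slc17a6 was lower in HM than in HT mice (log2 fold change -0.11, unadjusted p = 0.0194, limma). No gene of these lists passed the adjusted threshold in any comparison (limma, BH).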

How the data were processed

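Whole-brain RNA of 12 mice was sequenced by the authors as paired-end reads of 100 bases. Per the labels and methods, the authors estimated transcript counts with Salmon 1.1.0 on GRCm38 with correction for GC content, summed them to genes with tximport and divided them by DESeq2 1.30.1 size factors. The deposited values are this normalized count signal. Its values are not whole multiples of 1 read, so no count model was fitted. Symbols and positions came from GENCODE M21, in which 19758 of 19775 identifiers were found.

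Log2(normalized count + 1) was compared between pairs of genotypes by limma 3.58.1 (R 4.3.3, trended variance prior). A gene entered when its average over the 8 mice was 10 or more. Fold changes are on that scale, and p-values were adjusted over all genes by the BH method. The step was tested on simulated data. Further steps used Python 3.11.15, numpy 2.4.6 and pandas 2.3.3. Replicates are separate mice. The members and gene lists were chosen with earlier results of these data known. Genes of the lists were named where their unadjusted p was under 0.05, at most 4 per list and comparison, and some genes are not reported here. Alternatives were pseudocounts of 0.1 and 10, no filter, at least 10 in every mouse, quantile normalization, median centring, one fit of 12 mice, other variance priors, a replicate block and leaving out each mouse. A block for the first 3 digits of the number in each column header was added after seeing the data, and what that number stands for is not given in the sources used here.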

Additional observations from a re-analysis of the deposited data

Results flagged for a closer look

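In 2 of 21 groups of 4 mice examined (7 genes in 3 genotypes), 1 mouse stood far from the other 3, and chance gives such a gap in about 1 in 20 groups. For Grm5 in HM mice, replicate 3 (7089 normalized counts) lay below the other 3 (7476 to 7498), a gap of 0.944 of the whole range. For Grm3 in WT mice, replicate 1 (1491 normalized counts) lay below the other 3 (1605 to 1611), a gap of 0.951 of the whole range. Without WT replicate 1, the log2 fold change of Grm3 in HM mice was 0.09. Without HM replicate 3, that of Grm5 in HM mice was 0.14.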

How the results depend on the processing

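All results rest on 4 mice per genotype, and differences of about 0.1 on the log2 scale were similar in size to the spread between mice. No receptor gene passed the adjusted threshold under any setting, with a lowest adjusted p of 0.411 (limma, BH). Of the log2 fold changes of the 6 genes recomputed under 19 settings, 111 of 114 kept their direction in HT against WT, 109 of 114 in HM against WT and 106 of 114 in HM against HT. Quantile normalization turned Grm7 in HM mice to -0.0037. The header-number block turned HM against HT to -0.059 for Grm5 and 0.091 for Grm8, and gave 0.18 for Grm2 and 0.16 for Grm4. In that comparison only 1 of 4 HM and 2 of 4 HT mice had a mouse of the other genotype in their block. These blocked values therefore rest on 1 HM mouse. For HT against WT the block gave 0.065 for Grm5 and 0.0545 for Grm3. With each mouse left out, HT against WT ranged from -0.091 to 0.047 for Grm7 and from -0.0014 to 0.062 for Grm4, and HM against WT ranged from -0.061 to 0.077 for Grm7. HM against HT ranged from -0.047 to 0.038 for Grm5, -0.012 to 0.057 for Grm3, -0.0085 to 0.078 for Grm7 and -0.061 to 0.020 for Grm8.

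The count of receptor genes with an unadjusted p under 0.05 in HT against WT was 1 with a variance prior without a trend and 1 with the header-number block, and 0 to 2 with a mouse left out. In HM against WT it was 1 to 4 with a mouse left out, and in HM against HT it was 0 to 1 with a mouse left out. It also changed in HM against HT with the header-number block, a fit that rests on 1 HM mouse there. Over all genes, the number past the adjusted threshold was 1 in HT, 2 in HM against WT and 1 in HM against HT. Without a trend it was 0 in HT and 1 in HM mice, and with no filter 2 in HM against HT. With the header-number block it changed in HM against HT, again in a fit that rests on 1 HM mouse. With a mouse left out it was 1 to 5 in HT mice (5 without HT replicate 3, 2 without WT replicate 2) and 1 to 7 in HM against HT (7 without HM replicate 2 or 3, 3 without HT replicate 3 or 4, 2 without HT replicate 2). The cause of these changes was not tested, apart from the fewer mice when one is left out.

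Same-numbered mice share only a number. Their deviations from the genotype means correlated between -0.066 and 0.087 (5 of 12 pairs at or above 0). A mouse correlated best with the mouse of its own number in 2 of 12 cases. With the replicate block the number of genes called in HM against WT was 1 and 4 receptor genes still had an unadjusted p under 0.05.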

Other observations

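Within genotypes, over 12 mice, the receptors also varied with marker lists of brain regions and cell types, given here as descriptions because each point is 1 library. Grm5 varied with dentate granule cell markers (r = 0.60) and opposite to choroid plexus markers (r = -0.57). Grm3 also ran opposite to choroid plexus markers (r = -0.66). Microglial markers had r = -0.14 with Grm5 and 0.15 with Grm3. Grm4 varied with the 8 neuronal markers (r = 0.64) and opposite to oligodendrocyte (r = -0.59) and cerebellar granule cell markers (r = -0.48). Grm7 ran opposite to the 5 blood markers (r = -0.59). Grm2 had r = -0.50 with dentate granule cell markers and 0.14 with olfactory bulb markers.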
